A study of Arabidopsis thaliana with 10 samples.

Results

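Pistils of Arabidopsis thaliana collected 8 hours after pollination (8 HAP) were compared with unpollinated pistils. The comparison rests on the 4 of the 10 arrays in the series that carry these labels, 2 for each group, and on all 22745 non-control probe sets with values. Probe sets were not chosen by their values. All plants were of ecotype Columbia. Both groups came from flowers whose anthers had been removed at floral stage 12c. In the 8 HAP group pollen was put on the stigma 24 hours after that removal, and the pistils were frozen 8 hours later. The unpollinated group received no pollen, and its time from anther removal to freezing is not given here. Differences in pistil age or time of day were not separated from pollination. Each array was made from a pool of at least 20 pistils from at least 10 plants, so variation between plants is averaged within an array and the p-values reflect only the spread among pools. RNA was amplified in 2 rounds before labelling. Pistils at 0.5 HAP and 3.5 HAP, and unfertilised ovules dissected from 50 unpollinated pistils of about 30 plants per array, are used here only to place the 8 HAP values.

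Pollen that lands on the stigma takes up water and puts out a tube. The tube grows between the cells of the style and transmitting tract and then turns towards an ovule, where synergid cells attract it and where it bursts to release the sperm cells. Tube growth depends on secretion at the tip, a moving actin array, pectin- and cellulose-modifying enzymes, and receptor kinases that sense the wall. The pistil around the tubes is itself a green organ that begins to prepare for seed set or for senescence. An 8 HAP sample holds RNA of the tubes as well as of the pistil. In such bulk tissue fewer cells of a type and less RNA per cell cannot be told apart.

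The values were linear intensities. Their median over probe sets was between 252 and 272 on the 10 arrays. Between replicates, log2 values differed with an SD of 0.14 at 8 HAP, against 0.23 in unpollinated pistils, and a single variance per probe set was fitted across the groups. On 1 set of actin controls the 3' probe set exceeded the 5' one by log2 2.96 in unpollinated replicate 2 and by 1.93 to 2.55 on the other 9 arrays. On another actin set the excess was 3.33 in that array and 3.35 to 3.79 on the others. Values up to 136.5, the 95th percentile of 27 bacterial control probe sets, are called background level. Differences are of log2(value + 16), and a fold is 2 to that power. Where 1 mean lies within the background level the fold is no exact size, and log2 differences are given with the levels in its place. A call means an adjusted p under 0.05 from limma with Benjamini-Hochberg adjustment over all probe sets. "Rose" and "fell" are used of calls only.

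A large share of the probe sets differed between 8 HAP and unpollinated pistils. Of 22745 tested, 8763 were called (38.5%), 4483 of them higher (19.7%) and 4280 lower (18.8%) at 8 HAP. In all 8763 both 8 HAP arrays lay on the same side of both unpollinated arrays. Lack of overlap in a called gene, where given below, therefore adds nothing to its call. Most differences were small: the median log2 difference was 0.49 among the rises and -0.46 among the falls. Rises reached further than falls. There were 659 probe sets at least 2-fold higher (2.9%) and 376 at least 2-fold lower (1.65%), and 190 rises but 45 falls of at least 4-fold. Over all probe sets the median difference was -0.012 on the log2 scale. Scaling each array to 3 reference genes (PEX4, AT4G34270 and AT2G28390) moved it to 0.12, and the share of rises among the calls was 73.2% in place of 51.2%, so calls on small differences depend on the scaling. Without 8 HAP replicate 2 the calls numbered 5610. Calls were commonest where 1 group mean lay within the background level, with 44.7% of 1515 such probe sets higher and 27.4% lower. Of 14925 probe sets with both means above it 21.3% were higher and 22.2% lower, and of 6305 with both within it 9.93% were higher and 8.82% lower.

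Most of the strong rises were of probe sets with background values in ovules. Of the 659 probe sets at least 2-fold higher, 398 (60.4%) were within the background level in ovules, against 7977 of all 22745 tested (35.1%). Their median intensity was 537 at 8 HAP, against 130.1 in unpollinated pistils, and 98.6 in ovules. In unpollinated pistils 341 of the 659 lay within the background level, against 7176 of all 22745 tested. The 659 were chosen as lower in unpollinated pistils, from which the ovules also came. Part of the high share at background in ovules therefore follows from that choice. Of the 376 probe sets at least 2-fold lower, 99 (26.3%) were within the background level in ovules and 12 in unpollinated pistils, and their median intensity was 289 at 8 HAP, against 863 in unpollinated pistils. The comparison of 8 HAP with 3.5 HAP shares the 8 HAP arrays with the first one and is given only gene by gene or as a list's own count. Over all probe sets 7134 (31.4%) were called, 4310 (18.9%) higher and 2824 (12.4%) lower at 8 HAP than at 3.5 HAP, and 0.906% and 0.778% by at least 2-fold. Rises were 60.4% of those calls on the deposited scale. They were 50.5% under quantile normalization and 83.4% under the reference gene scaling.

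Among the 20 largest rises with both means above background, 4 genes carried a symbol. ASPGB1 (AT3G16150), an asparaginase that frees ammonium from asparagine, had 3047 and 3087 at 8 HAP, against 377 and 420.3 in unpollinated pistils. It rose 7.44-fold (log2 2.90, SE 0.12; adjusted p = 1.3e-08). Its level at 0.5 HAP, 398 and 369.7, overlapped that of unpollinated pistils, and at 3.5 HAP it had 655 and 516. BSMT1 (AT3G11480), which methylates salicylic and benzoic acid, had 2289 and 1722 at 8 HAP, against 275 and 270.5 in unpollinated pistils, a 6.94-fold rise (adjusted p = 2.31e-08). It was already at 2048 and 2334 at 3.5 HAP and was not called between 3.5 and 8 HAP. The other symbols were BAN, described below, and RXF26 (AT1G58430), with 889 and 826 at 8 HAP, against 176 and 181 in unpollinated pistils. The remaining 16 had only a locus tag. The largest of them, AT3G01270, had 3594 and 3752 at 8 HAP, against 143 and 158 in unpollinated pistils, a 22.2-fold rise. AT3G28750 had 3801 and 3793 at 8 HAP, against 186 and 170.2 in unpollinated pistils, and AT2G25510 4422 and 3828 at 8 HAP, against 202 and 218 in unpollinated pistils, rises of 19.7-fold and 18.3-fold. All 3 had ovule means within the background level.

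Of the 10 largest rises that started within the background level, 3 belonged to genes with a symbol. UF3GT is described with its pathway. GH3.3 (AT2G23170), an enzyme that joins auxin to amino acids, had 938 and 1087 at 8 HAP, against 32.3 and 29.5 in unpollinated pistils (log2 4.45; adjusted p = 1.34e-08). Its 2 arrays at 0.5 HAP had 60.1 and 74.1 and those at 3.5 HAP 839.5 and 679.9, so the step lay between those times. The serine carboxypeptidase-like gene scpl38 (AT2G05850) had 1412 and 1373 at 8 HAP, against 55.5 and 62.1 in unpollinated pistils (log2 4.24; adjusted p = 2.62e-10), and 819 and 889 at 3.5 HAP. In ovules both genes lay within the background level. The log2 difference depended on the number added before the log: with 64 in place of 16 it was 3.50 for GH3.3 and 3.57 for scpl38.

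The largest fall was that of AT2G33850, a locus with no symbol, which had 46.7 and 47.6 at 8 HAP, against 2535 and 2525 in unpollinated pistils (log2 -5.33; adjusted p = 2.62e-10). With 64 added in place of 16 its log2 difference was -4.54. Its ovule arrays were at 35.1 and 36, also within the background level. AT4G19430 had 362 and 347 at 8 HAP, against 2922 and 3171 in unpollinated pistils, an 8.27-fold fall, and AT5G62730 206 and 176 at 8 HAP, against 1464 and 1363 in unpollinated pistils, a 6.93-fold fall. A fall late in the time course was seen in AT1G30795. It measured 2118 and 1956 (unpollinated), 1604 and 1944 (0.5 HAP), 1959.7 and 1649 (3.5 HAP) and 313 and 270.2 (8 HAP). AT5G19120 likewise had 433 and 643 at 8 HAP, against 2173 and 2665 at 3.5 HAP, a 4.45-fold fall between the 2 times (adjusted p = 2.48e-05). The largest fall with both means above background was that of AT2G07718, which had 186 and 170.0 at 8 HAP, against 2264 and 2766 in unpollinated pistils and 177 and 173 at 0.5 HAP.

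Named genes were grouped into 66 lists by symbol, description or genome, and 64 had a measured member. Of these lists 19 were added once the names in the table were known. All lists were chosen with earlier results of these data known, so their counts describe the data and are no independent support. Of the 752 probe sets on any list 192 were higher, 159 lower and 401 not called. Each list's counts stand beside 19.7% higher and 18.8% lower over all probe sets. Against 3.5 HAP these shares were 18.9% and 12.4%. Many genes have no symbol in the annotation used, so a list covers its pathway only in part. For anthocyanins and flavonoids, 6 of the 53 symbols sought were found on a probe set of their own.

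**Figure D1:**
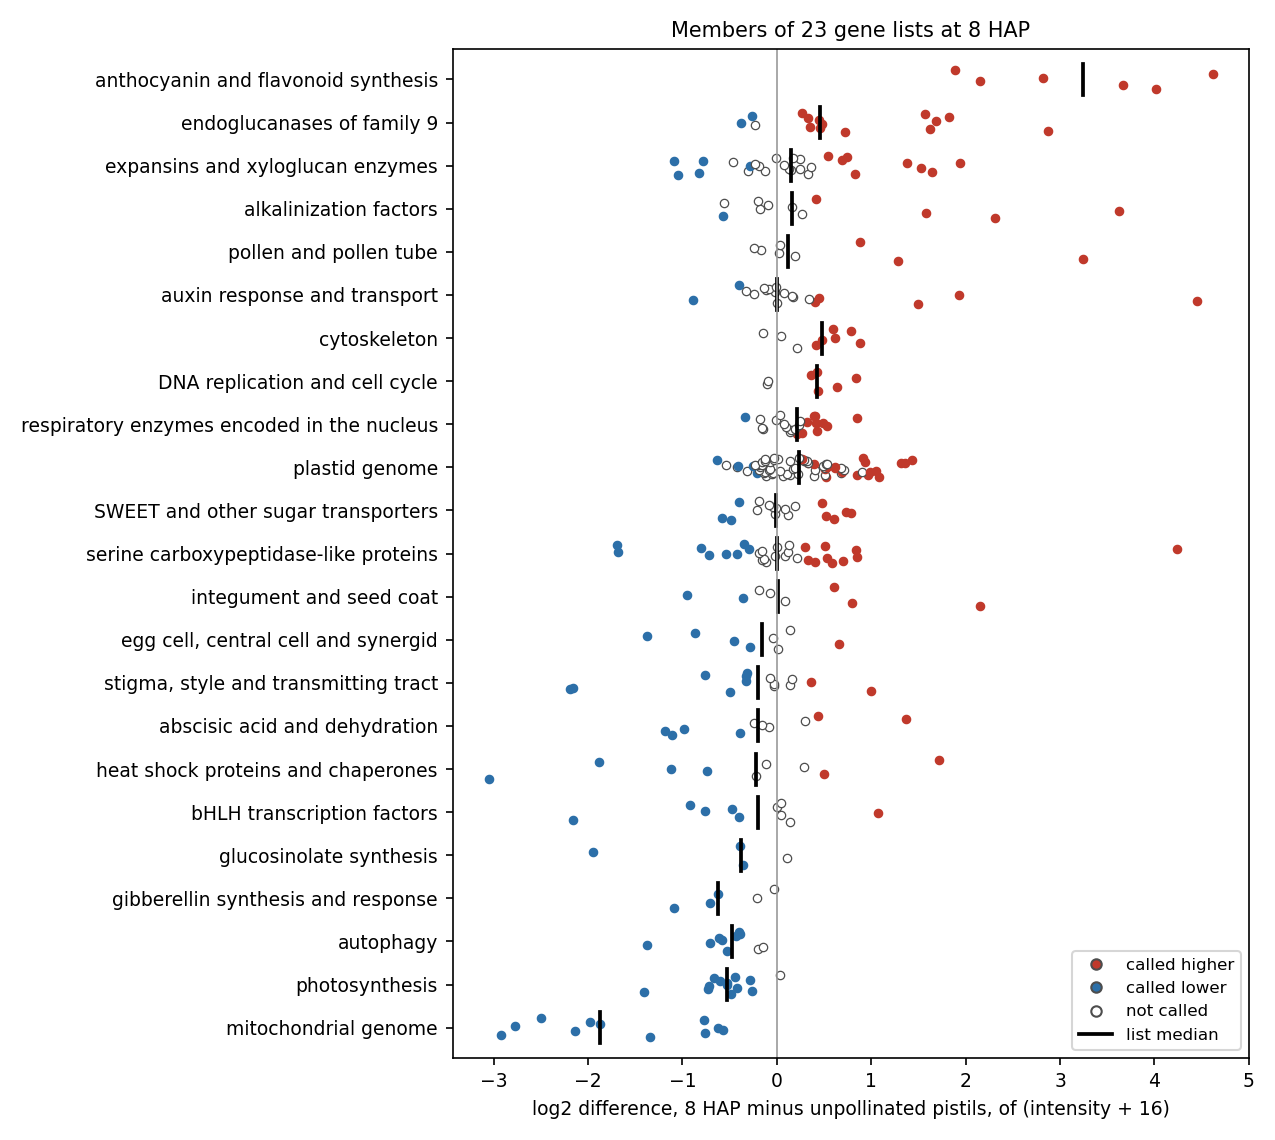
Log2 difference of intensity plus 16, 8 HAP minus unpollinated pistils, for each measured member of 23 gene lists (points, 1 per gene, red called higher, blue called lower, open not called) with the list median (black bar). All 6 anthocyanin and flavonoid genes lie to the right of 0, and all 11 mitochondrial genes to the left.

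All 6 measured genes of anthocyanin and flavonoid synthesis rose at 8 HAP, by a median log2 difference of 3.25, against -0.012 over all probe sets. Anthocyanins are pigments made from dihydroflavonols, which DFR reduces, and then decorated with sugars and acyl groups. DFR (AT5G42800) had 929 and 842 at 8 HAP, against 102 and 122 in unpollinated pistils (log2 2.82, SE 0.15; adjusted p = 1.01e-07). UF3GT (AT5G54060), which adds a sugar to anthocyanins, had 3767 and 3449 at 8 HAP, against 122.6 and 141 in unpollinated pistils (log2 4.62; adjusted p = 2.62e-10). AT5MAT (AT3G29590), an anthocyanin malonyltransferase, had 1179 and 975 at 8 HAP, against 62.9 and 76.3 in unpollinated pistils (log2 3.67; adjusted p = 1.45e-09). The locus AT4G14090, entered on the list without a symbol, had 1765 and 1495 at 8 HAP, against 80.3 and 90.8 in unpollinated pistils (log2 4.02). All 4 had means within the background level in unpollinated pistils, and no 8 HAP array overlapped an unpollinated one.

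UGT78D2 (AT5G17050), a flavonoid 3-O-glucosyltransferase, and BAN (AT1G61720), the anthocyanidin reductase of tannin synthesis, were measurable before pollination. UGT78D2 had 1372 and 1371 at 8 HAP, against 382 and 338 in unpollinated pistils, a 3.7-fold rise (adjusted p = 1.01e-07). BAN had 1507 and 1413 at 8 HAP, against 364 and 275 in unpollinated pistils, a 4.43-fold rise (adjusted p = 4.09e-07). The 6 genes differed in ovules. BAN was at 2509 and 2855 in ovules, above the 8 HAP level, and DFR at 434 and 514. UF3GT, AT5MAT and AT4G14090 were within the background level there, with 134 and 124, 64.8 and 59.6 and 72.7 and 72.5. All 6 genes were also higher at 8 HAP than at 3.5 HAP. UF3GT had 933 and 1031 at 3.5 HAP and AT5MAT 195 and 202, so the 8 HAP means were 3.63-fold and 5.07-fold those of 3.5 HAP. Another flavonoid transferase, UGT78D1, which adds rhamnose to flavonols, rose 1.8-fold to 2659 and 2515 at 8 HAP, against 1514 and 1353 in unpollinated pistils.

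**Figure D2:**
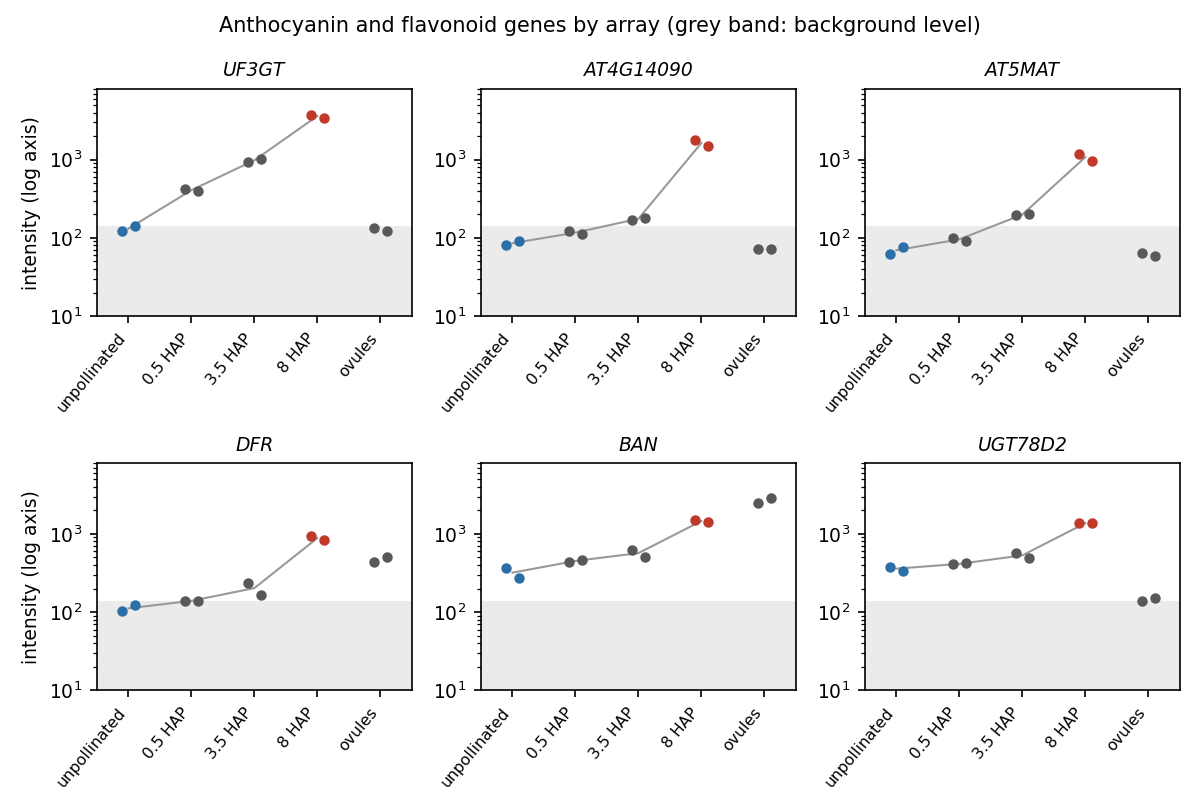
Intensity on a log axis of 6 anthocyanin and flavonoid genes on each array of unpollinated pistils, 0.5, 3.5 and 8 HAP pistils and ovules (points, 2 per group, 8 HAP in red, unpollinated in blue, line through the group means of the pistil times). The 8 HAP arrays are the highest of the pistil arrays for each gene, and in ovules BAN and DFR lie well above the grey band of the background level, UGT78D2 just above it and the other genes in it.

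Of 48 measured UDP-glycosyltransferases 10 rose and 10 fell, beside 19.7% and 18.8% of all probe sets, with a median log2 difference of -0.045, and UF3GT, UGT78D2 and UGT78D1 are among the 10 rises. Without 8 HAP replicate 2, 6 fell. UGT84A1, which glucosylates hydroxycinnamic acids, rose 2.57-fold with 509 and 458 at 8 HAP, against 176 and 180.4 in unpollinated pistils. UGT76E12 rose to 328 and 271 at 8 HAP, against 92.7 and 76.5 in unpollinated pistils, though it had stood at 568 and 569.8 at 3.5 HAP. UGT73C1 fell to 54.1 and 53.4 at 8 HAP, against 143 and 133 in unpollinated pistils, a difference at the background level.

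Of 8 measured pollen and pollen tube genes, 3 rose and 0 fell at 8 HAP, beside 19.7% and 18.8% of all probe sets. The summed intensity of the 8 genes was 1953 and 2059 at 8 HAP, against 1037 and 1051 in unpollinated pistils, which received no pollen. How much of the other rises is RNA of the tubes was not tested. ANX2 (AT5G28680), a receptor kinase that keeps the tube from bursting early, had 494 and 478 at 8 HAP, against 31.2 and 43.6 in unpollinated pistils (log2 3.24; adjusted p = 7.42e-09; log2 2.44 with 64 added). Its close relative ANX1 (AT3G04690) had 155 and 155 at 8 HAP, against 52.2 and 56.5 in unpollinated pistils (log2 1.28; adjusted p = 1.1e-06). Both groups stood apart in both genes, and both genes were higher than at 3.5 HAP, by log2 0.48 for ANX2 and 0.38 for ANX1. TUA1, an alpha-tubulin of pollen, rose 1.85-fold but did not differ by a call from 3.5 HAP. FER, the related receptor kinase of synergids, which receives the tube, had 1498 and 1538 at 8 HAP, against 1639.7 and 1153 in unpollinated pistils (log2 0.14; adjusted p = 0.461). The 5 pollen genes without a call had log2 differences between -0.24 (SHT) and 0.20 (ATGLR1.2), and 3 of the 8 were within the background level in both groups.

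Among rapid alkalinization factors, secreted peptides of which some bind receptors of the ANX and FER family, 4 of 11 rose and 1 fell. Over all probe sets 19.7% rose and 18.8% fell. RALFL26 (AT3G25170) had 1871 and 1818 at 8 HAP, against 115 and 157 in unpollinated pistils (log2 3.63; adjusted p = 3.86e-09). RALFL25 (AT3G25165) had 187 and 189 at 8 HAP, against 47.5 and 57.7 in unpollinated pistils (log2 1.58). In ovules both lay within the background level. RALFL18 differed from them, since it was at 523 and 493 in ovules. It had 552 and 473 at 8 HAP, against 92.9 and 87.0 in unpollinated pistils, with 204 and 224 at 3.5 HAP. RALFL34 rose 1.34-fold and was not called without 8 HAP replicate 1 (adjusted p = 0.0689). RALFL22 fell 1.49-fold to 294 and 275 at 8 HAP, against 452 and 409 in unpollinated pistils. A second member fell when either unpollinated array was left out.

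Over 20 measured actin-associated and myosin genes, a list added later, 5 rose, 5 fell and 10 were not called. These counts are near the shares over all probe sets, 19.7% and 18.8%. The rises numbered 3 without 8 HAP replicate 1 or unpollinated replicate 1 and 2 without 8 HAP replicate 2. PLIM2a (AT2G45800), an actin-bundling LIM protein known from pollen, had 391 and 403 at 8 HAP, against 110.1 and 127 in unpollinated pistils, a rise by log2 1.62 (adjusted p = 1.12e-05) whose size differed little by 0.5 HAP, where it had 334 and 345. Of the widely expressed LIM forms, WLIM2b fell 1.98-fold with 1721 and 1503 at 8 HAP, against 3412 and 2997 in unpollinated pistils, and WLIM2a fell 1.45-fold.

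**Figure D3:**
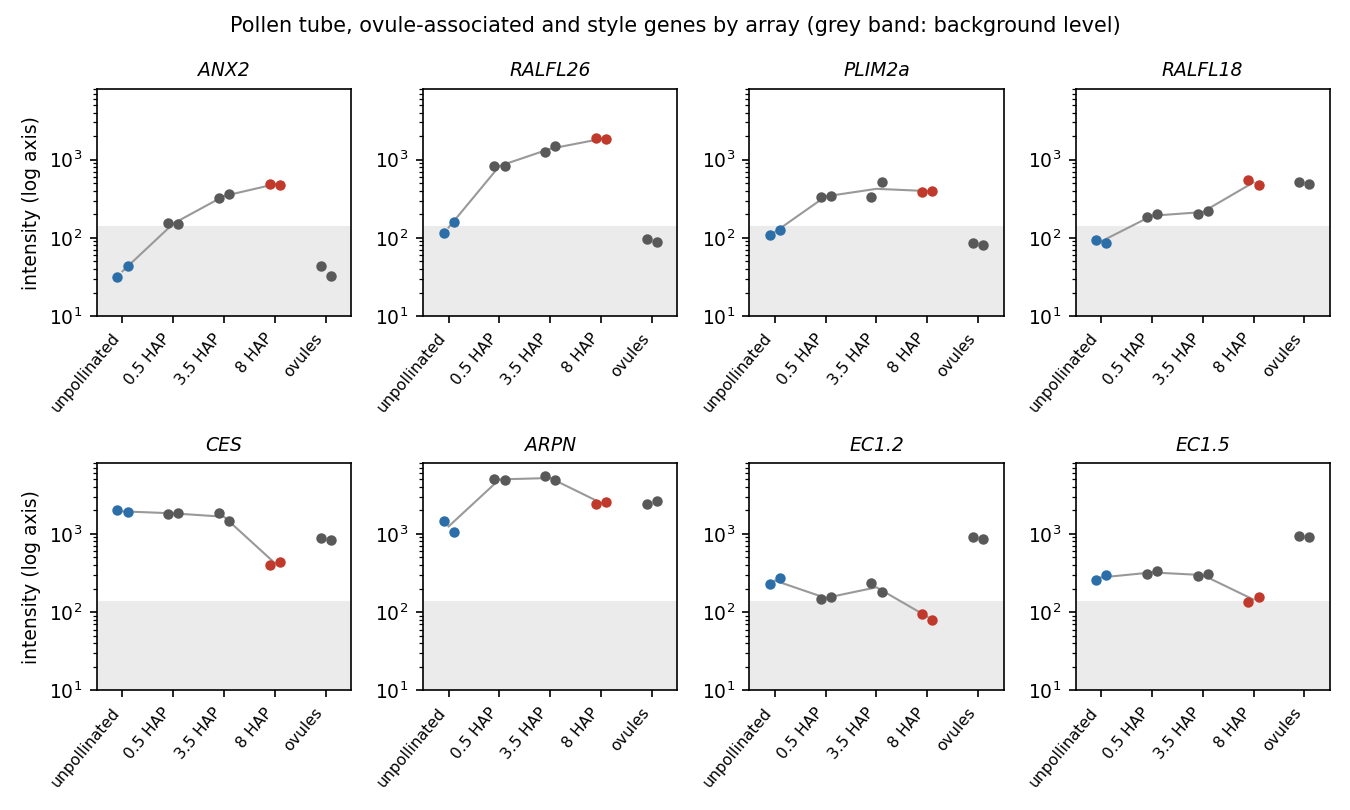
Intensity on a log axis on each array of unpollinated, 0.5, 3.5 and 8 HAP pistils and of ovules for genes known from pollen tubes (ANX2, RALFL26, PLIM2a), RALFL18, style genes (CES, ARPN) and egg cell genes (EC1.2, EC1.5), with 8 HAP in red, unpollinated in blue and a line through the pistil means. ANX2 and RALFL26 climb at each time and lie in the grey background band in ovules, while CES, EC1.2 and EC1.5 are lowest of the pistil times at 8 HAP.

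Most measured endoglucanases, which cut the glucan chains of the wall, rose. Of 15 measured members of glycoside hydrolase family 9, 12 rose and 2 fell, with a median log2 difference of 0.46. Over all probe sets 19.7% rose and 18.8% fell. Of the 15, 3 lay within the background level in both groups, which leaves 11 rises and 1 fall above it. Only 5 rises were of at least 2-fold. This list was added once the names in the table, and earlier results of these data, were known. GH9A4 (AT3G43860) had 394 and 403 at 8 HAP, against 41.5 and 39.7 in unpollinated pistils (log2 2.87; adjusted p = 1.71e-08; log2 2.14 with 64 added). GH9C2 (AT1G64390), of the class with a carbohydrate-binding module, had 1754 and 1750.5 at 8 HAP, against 714 and 469.5 in unpollinated pistils, a 2.97-fold rise (adjusted p = 1.4e-05). GH9B8 had 526 and 470.0 at 8 HAP, against 109.7 and 151 in unpollinated pistils and GH9B11 468 and 431 at 8 HAP, against 129 and 141 in unpollinated pistils. No 8 HAP array overlapped an unpollinated one in these 4 genes. In the ovule arrays they differed: GH9A4, GH9B8 and GH9B11 were within the background level there and GH9C2 was at 249.7 and 287. GH9B5, with 621 and 596 at 8 HAP, against 126 and 247 in unpollinated pistils, and GH9A3, with 611 and 584 at 8 HAP, against 334 and 380.1 in unpollinated pistils, were also measured in ovules, at 352 and 334 and 1055 and 1218. GH9B18 fell 1.3-fold. Without 1 array at a time 9 to 12 of the 15 rose, and 1 fell without either 8 HAP array.

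Of 27 expansins, which loosen walls, and xyloglucan enzymes 8 rose and 5 fell, beside 19.7% and 18.8% of all probe sets. The rises included EXPB5 (224 and 252 at 8 HAP, against 53.8 and 46.7 in unpollinated pistils; log2 1.94), EXPA15 (1005 and 1146 at 8 HAP, against 396 and 281 in unpollinated pistils; log2 1.64) and EXPA4 (497 and 512 at 8 HAP, against 166 and 162 in unpollinated pistils; log2 1.53). EXPB3 rose 2.60-fold. All 4 were also higher at 8 HAP than at 3.5 HAP. The falls included XTH18, with 175 and 183 at 8 HAP, against 402 and 396 in unpollinated pistils, and XTH19, with 411 and 424 at 8 HAP, against 752 and 709.9 in unpollinated pistils, xyloglucan endotransglucosylases that are neighbours by locus tag (AT4G30280 and AT4G30290). EXLA1, an expansin-like gene, fell 2.06-fold. EXLB1 had 140.0 and 139 at 8 HAP, against 330.2 and 204 in unpollinated pistils and was at 448 and 681 at 3.5 HAP; its fall was not called without unpollinated replicate 1 (adjusted p = 0.0513). Rises numbered 14 under the reference gene scaling and 5 without the dimmest probe sets, which leaves fewer genes to test. The pectin methylesterase gene PME61 rose 1.47-fold, with 406 and 463 at 8 HAP, against 306 and 276 in unpollinated pistils. The cellulose synthase-like gene CSLA01 rose 1.45-fold to 1089 and 1159 at 8 HAP, against 786 and 749 in unpollinated pistils.

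**Figure D4:**
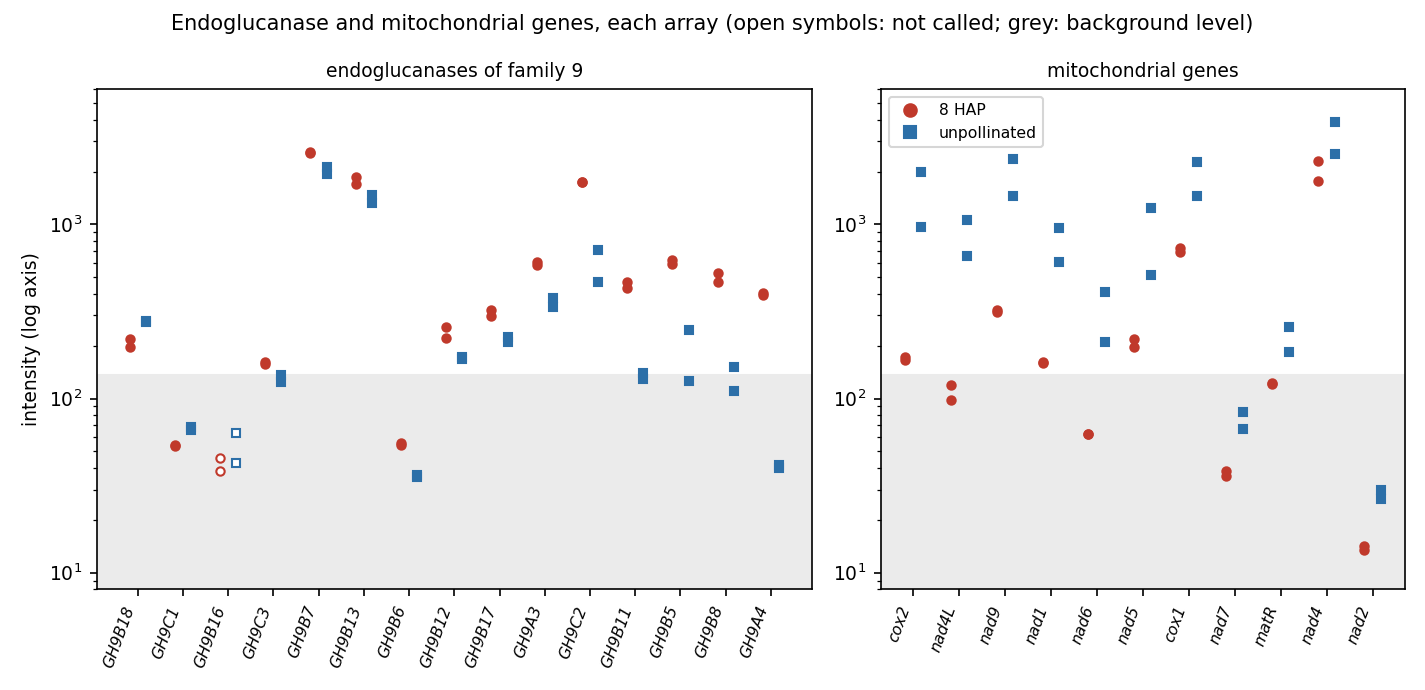
Intensity on a log axis on each array at 8 HAP (red circles) and in unpollinated pistils (blue squares) for 15 endoglucanase genes and 11 mitochondrial genes, ordered by log2 difference, with open symbols for genes not called and the background level in grey. For GH9A4 both 8 HAP arrays lie at 394 and 403 and both unpollinated arrays at 41.5 and 39.7, and for cox2 the unpollinated arrays lie apart from each other as well as from 8 HAP.

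Of 9 measured actin and tubulin genes 6 rose and 0 fell (median log2 0.47). Beside TUA1, the rises included the beta-tubulin genes TUB7, with 1791 and 1694 at 8 HAP, against 1123 and 894 in unpollinated pistils (1.73-fold; adjusted p = 0.000215), and TUB9, with 2353 and 2228 at 8 HAP, against 1640.0 and 1385 in unpollinated pistils (1.51-fold). TUB5 had 1477 and 1367 at 8 HAP, against 1573 and 1212 in unpollinated pistils (adjusted p = 0.802) and overlapped between groups. Of 7 replication and cell cycle genes 5 rose and 0 fell (median log2 0.42), and the same 5 were higher than at 3.5 HAP. POLA3, a subunit of the DNA polymerase alpha-primase complex, rose 1.79-fold with 837 and 870.4 at 8 HAP, against 478 and 463 in unpollinated pistils (adjusted p = 0.000107). AUR2, an Aurora kinase of mitosis, rose 1.56-fold with 255 and 226 at 8 HAP, against 148 and 149 in unpollinated pistils. The other rises, AUR1, TOPII and the replication licensing gene PRL, were each lost without single arrays, and without 8 HAP replicate 1 or unpollinated replicate 1 only 2 of the 5 passed.

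The histone H2B gene HTB2 had 638 and 469 at 8 HAP, against 250.1 and 247 in unpollinated pistils, a 2.13-fold rise (adjusted p = 0.000169), and HTR12, the centromeric histone H3, rose 1.51-fold with 265 and 269.7 at 8 HAP, against 151 and 195 in unpollinated pistils. Both were higher in ovules, at 1218 and 933 and 573 and 627. HIS1-3, a linker histone induced by drought, fell by log2 1.31 to 50.1 and 59.2 at 8 HAP, against 180.4 and 139 in unpollinated pistils. Some response regulators of the cytokinin pathway rose. ARR15 had 201 and 189 at 8 HAP, against 86.4 and 95.2 in unpollinated pistils and RR16 619 and 558 at 8 HAP, against 388 and 412 in unpollinated pistils; both are type A regulators, which damp the response. RR22 had 151 and 113 at 8 HAP, against 24.6 and 26.6 in unpollinated pistils (log2 1.82; adjusted p = 1.31e-06), with both group means within the background level, and 26.5 and 32.9 at 0.5 HAP and 35 and 32.5 at 3.5 HAP. RR16 was lower at 8 HAP than at 3.5 HAP, where it had 736 and 680.4. Of 6 measured regulators 3 rose and 0 fell.

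Some nuclear genes of respiration rose, while the measured mitochondrial genes fell. Of 23 nuclear genes on a list added once names were known, 10 rose, 1 fell and 12 were not called (median log2 0.22). Over all probe sets 19.7% rose and 18.8% fell. SDH1-1, the flavoprotein subunit of succinate dehydrogenase, rose 1.8-fold with 1775 and 1724 at 8 HAP, against 1043 and 896 in unpollinated pistils (adjusted p = 4.49e-05), and its iron-sulphur subunits SDH2-1 and SDH2-2 each rose 1.32-fold. IDH-V, a subunit of mitochondrial isocitrate dehydrogenase, rose 1.44-fold. The list also holds genes whose products work outside mitochondria: ACLB-1, of the cytosolic ATP-citrate lyase, rose 1.34-fold. Without 8 HAP replicate 2 the rises numbered 5, and the single fall, of SDH1-2, was lost without either 8 HAP array or unpollinated replicate 2.

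All 11 measured mitochondrially encoded genes fell, by a median log2 difference of -1.87, and 2 of them lay within the background level in both groups. Cytochrome c oxidase subunit gene cox2 had 166 and 174 at 8 HAP, against 962 and 2001 in unpollinated pistils (log2 -2.92; adjusted p = 4.22e-06). The NADH dehydrogenase genes nad9, with 321 and 315 at 8 HAP, against 1464 and 2385 in unpollinated pistils, and nad1, with 159 and 163 at 8 HAP, against 612 and 958 in unpollinated pistils, fell by log2 2.50 and 2.14. The unpollinated arrays differed from each other, with unpollinated replicate 2 the higher in 10 of the 11 genes; this is the array with the high actin ratio given above. Without any 1 of the 4 arrays, that one included, 10 or 11 of the 11 fell. The value of nad5 moved most: its log2 difference was -1.87, and -2.50 without unpollinated replicate 1 or -1.25 without unpollinated replicate 2. The genes were already low at 0.5 HAP, where cox2 had 121 and 143, and 4 of the 11 were higher at 8 HAP than at 3.5 HAP. Near-identical copies of mitochondrial genes lie in the nuclear genome, so the genome these signals come from is uncertain. With a gene's probe sets averaged in place of the brightest taken, the median was -1.34.

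Plastid genes moved less. Of 69 measured genes 19 rose and 4 fell (median log2 0.23), beside 19.7% and 18.8% of all probe sets. Of the 69, 27 were higher than at 3.5 HAP, beside 18.9% of all probe sets. The ribosomal protein gene rpl14 had 1688 and 1527 at 8 HAP, against 537 and 749.8 in unpollinated pistils (log2 1.32; adjusted p = 1.95e-05) and ndhJ 667 and 667 at 8 HAP, against 321 and 337 in unpollinated pistils (log2 0.99). At 0.5 HAP both had been as high or higher, with 1854 and 1853 and 783 and 788. The ribosomal protein gene rps18 fell 1.55-fold. Rises numbered 10 without 8 HAP replicate 2 and 30 under the reference gene scaling, and falls 2 under either of these and 7 without either unpollinated array.

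Nuclear genes of photosynthesis fell together. Of 13 measured genes 12 fell and 0 rose (median log2 -0.53), and all 13 were lower at 8 HAP than at 3.5 HAP. The largest fall was that of LHCB4.2 (AT3G08940), a minor antenna protein of photosystem II, with 2083 and 2036 at 8 HAP, against 5148 and 5813 in unpollinated pistils, 2.64-fold (adjusted p = 5.01e-06). The photosystem subunit genes PSAE-1, with 5728 and 5612 at 8 HAP, against 8133 and 8242 in unpollinated pistils, and PSBY, with 3041 and 2889 at 8 HAP, against 5253 and 4200.4 in unpollinated pistils, fell 1.44-fold and 1.58-fold. NdhS, of the plastid NADH dehydrogenase-like complex, fell 1.64-fold with 849 and 821 at 8 HAP, against 1287 and 1480.3 in unpollinated pistils. In none of the 12 did an 8 HAP array reach an unpollinated one. Of the Calvin cycle enzymes PRK fell 1.44-fold and RCA, rubisco activase, 1.36-fold. SBPASE had 3070.4 and 3411 at 8 HAP, against 3129 and 3203 in unpollinated pistils (adjusted p = 0.778), with overlapping arrays. All 13 had lower means in ovules than in unpollinated pistils. Without single arrays, or with other settings, 10 to 12 of the 13 fell. PORB, which makes chlorophyllide in the light, fell 1.99-fold to 2054 and 2080.2 at 8 HAP, against 4339.9 and 3927 in unpollinated pistils, with 2 falls and 0 rises among 7 genes of pigment synthesis.

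Autophagy genes of the ATG8 family fell as well. Of 10 measured genes 8 fell and 0 rose (median log2 -0.48), all 8 of them members of the ATG8 family, the ubiquitin-like proteins that coat the forming autophagosome. Apart from ATG3, which was not called, every measured gene belongs to that family. The counts therefore do not speak for the rest of the pathway. ATG8B (AT4G04620) had 468 and 421 at 8 HAP, against 1104 and 1251 in unpollinated pistils, a 2.59-fold fall (adjusted p = 7.27e-07). ATG8C had 688 and 591 at 8 HAP, against 1040.0 and 1061 in unpollinated pistils, and the brightest member, ATG8F, 3319 and 3309 at 8 HAP, against 4287 and 4653 in unpollinated pistils, falls of 1.63-fold and 1.35-fold. The groups did not overlap in these 3 genes. ATG3, the enzyme that attaches ATG8 to lipid, had 473 and 420.3 at 8 HAP, against 551 and 446 in unpollinated pistils (adjusted p = 0.349), and APG8H, an ATG8 gene by its older symbol, 1964 and 1666 at 8 HAP, against 1865 and 2307 in unpollinated pistils (adjusted p = 0.236). The falls did not run steadily from pollination on. ATG8E measured 843 and 947 (unpollinated), 742 and 815 (0.5 HAP), 1141 and 1279.6 (3.5 HAP) and 586 and 575 (8 HAP), so it was highest at 3.5 HAP and lowest at 8 HAP. Without 1 array at a time the falls numbered 7 to 9.

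**Figure D5:**
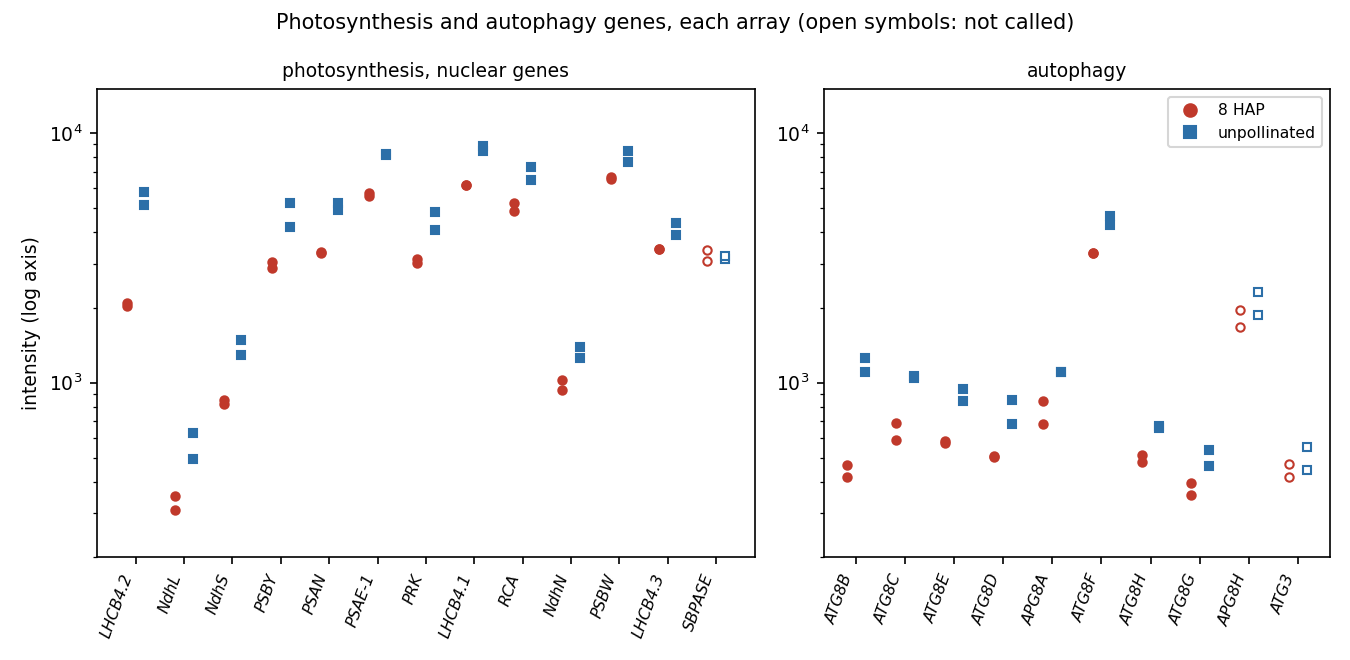
Intensity on a log axis on each array at 8 HAP (red circles) and in unpollinated pistils (blue squares) for 13 nuclear photosynthesis genes and 10 autophagy genes, ordered by log2 difference, with open symbols for genes not called. The 8 HAP arrays lie below the unpollinated ones for 12 photosynthesis genes and 8 autophagy genes, and SBPASE, APG8H and ATG3 overlap.

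Of 5 gibberellin genes 3 fell and 0 rose. GID1A, a receptor, fell 2.13-fold with 414 and 434 at 8 HAP, against 971 and 874 in unpollinated pistils (adjusted p = 4.97e-06), and GID1B fell 1.63-fold with 159 and 168 at 8 HAP, against 279.9 and 273 in unpollinated pistils. GID1C had 109 and 115 at 8 HAP, against 124 and 142 in unpollinated pistils (adjusted p = 0.0708). SLY1, the F-box protein that removes DELLA repressors, fell 1.54-fold, but not without 8 HAP replicate 2 (adjusted p = 0.0501). SPY had 525 and 562 at 8 HAP, against 649.6 and 477 in unpollinated pistils (adjusted p = 0.87).

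Of 19 measured auxin genes 5 rose and 2 fell, beside 19.7% and 18.8% of all probe sets. The number of falls changed when single arrays were left out. Besides GH3.3, ARL (AT2G44080), which promotes organ growth, rose 2.82-fold with 2481 and 2523 at 8 HAP, against 833 and 921 in unpollinated pistils and had stood higher still at 3.5 HAP, at 3193 and 3222. The Aux/IAA repressor gene IAA31 had 166 and 178 at 8 HAP, against 32.8 and 34 in unpollinated pistils (log2 1.93; 1.27 with 64 added), a rise seen after 3.5 HAP, where it was at 36.7 and 44.5. GH3.9 fell to 47.0 and 59.7 at 8 HAP, against 99.4 and 125 in unpollinated pistils, within the background level. Among 4 jasmonate genes 3 rose and 0 fell. The smallest rise, of OPCL1 (log2 0.48, adjusted p = 0.0363 in limma), was lost without either 8 HAP array or unpollinated replicate 2. JMT, which methylates jasmonate, had 243 and 152 at 8 HAP, against 46.7 and 58.0 in unpollinated pistils (log2 1.62; adjusted p = 2e-05), and MYC4, a transcription factor of the response, 469 and 473 at 8 HAP, against 259.8 and 179 in unpollinated pistils. Its relative MYC3 had 804 and 772 at 8 HAP, against 962 and 604 in unpollinated pistils (adjusted p = 0.87) and overlapped.

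Genes of cold and drought response were mostly lower at 8 HAP than at 3.5 HAP. Against 3.5 HAP 8 of 10 measured were lower, beside 12.4% of all probe sets. Against unpollinated pistils 2 rose and 4 fell. The rises numbered 1 without 8 HAP replicate 1 or unpollinated replicate 2. COR15A, a protein that protects chloroplasts in the cold, measured 447 and 478 (unpollinated), 2083 and 2001 (0.5 HAP), 1723 and 2011 (3.5 HAP) and 236 and 178 (8 HAP). It was 2.17-fold below its unpollinated level at 8 HAP and well above it at both earlier times. COR47, a dehydrin, measured 1833 and 1554 (unpollinated), 3379.6 and 3259.9 (0.5 HAP), 2016 and 2101 (3.5 HAP) and 861 and 834 (8 HAP). COR27 fell 2.28-fold with 503 and 482 at 8 HAP, against 1238 and 1053 in unpollinated pistils. The dehydrin LTI30, at 169 and 111 at 8 HAP, was still above its unpollinated values of 43.8 and 43.0 (log2 1.37; adjusted p = 8.01e-05), though below the 1099.8 and 1151 of 0.5 HAP.

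Of 9 measured chaperone genes 2 rose and 4 fell. Fes1A, an exchange factor of Hsp70, rose by log2 0.50 with 469.6 and 660.1 at 8 HAP, against 388 and 389.5 in unpollinated pistils and was not called without 8 HAP replicate 2 (adjusted p = 0.115). Hsp70-2 (AT5G02490) rose 3.30-fold with 4206 and 4519 at 8 HAP, against 1191 and 1444 in unpollinated pistils (adjusted p = 6.81e-07). The small heat shock protein gene ATHSP22.0 had 75.9 and 246 at 8 HAP, against 1094 and 1476 in unpollinated pistils. Its 2 arrays at 8 HAP differed from each other, and its log2 difference of -3.05 became -2.30 without 8 HAP replicate 1 and -3.81 without 8 HAP replicate 2. Hop3, a co-chaperone that links Hsp70 and Hsp90, fell to 134 and 149 at 8 HAP, against 502 and 639.8 in unpollinated pistils, while Hop2 had 779 and 810.0 at 8 HAP, against 808 and 919.5 in unpollinated pistils (adjusted p = 0.339). Fes1C and Fes1B, of the same exchange factor family as Fes1A, fell 2.18-fold and 1.67-fold.

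Of 16 defence peptides and proteins 4 rose and 5 fell, beside 19.7% and 18.8% of all probe sets. PDF1.4, a plant defensin, had 135 and 111 at 8 HAP, against 324 and 478 in unpollinated pistils, and the osmotin gene OSM34 66.4 and 88.1 at 8 HAP, against 257 and 212 in unpollinated pistils; both 8 HAP means lay within the background level. The thionin gene THI2.1 fell 1.28-fold with 10334 and 10045 at 8 HAP, against 13149.5 and 12856 in unpollinated pistils (adjusted p = 0.000221). SAG101, a partner in immune signalling, rose by log2 0.70 with 151 and 148 at 8 HAP, against 92.1 and 80.5 in unpollinated pistils. LCR72, of the defensin-like LCR family, rose by log2 1.62 with 336 and 361 at 8 HAP, against 80.7 and 129 in unpollinated pistils. The falls numbered 3 without 8 HAP replicate 2 or unpollinated replicate 2. Of 4 glucosinolate genes 3 fell and 0 rose. BCAT4, which starts the chain elongation of methionine, had 869 and 1206 at 8 HAP, against 3899.9 and 4085 in unpollinated pistils, a 3.85-fold fall (adjusted p = 6.35e-06). It had been lower still at 3.5 HAP, at 454 and 537, so the 8 HAP mean was 2.04-fold that of 3.5 HAP (adjusted p = 0.00128). UGT74B1, of the same pathway, fell 1.31-fold against unpollinated pistils and was likewise higher than at 3.5 HAP. GSTU18, a glutathione transferase, fell 2.05-fold with 583 and 606 at 8 HAP, against 1126 and 1359 in unpollinated pistils.

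Transcription factors of the bHLH family fell more than they rose: 5 of 10 fell and 1, MYC4, rose. Of 6 measured factors known to act in the iron deficiency response, bHLH121 had 423 and 439.7 at 8 HAP, against 928 and 742 in unpollinated pistils, a 1.89-fold fall (adjusted p = 7.75e-05), and bHLH104 fell 1.39-fold with 656 and 692 at 8 HAP, against 887 and 1004 in unpollinated pistils. ILR3 fell 1.32-fold, but its call was lost without 8 HAP replicate 2 (adjusted p = 0.0743) and under the reference gene scaling (adjusted p = 0.0565). bHLH115 had 619 and 672 at 8 HAP, against 615 and 672 in unpollinated pistils and bHLH34 324 and 268 at 8 HAP, against 253 and 322 in unpollinated pistils, with overlapping arrays. BHLH101 had 74.1 and 68.5 at 8 HAP, against 60.6 and 65.4 in unpollinated pistils (adjusted p = 0.237). These 6 were grouped after their values were seen. GI, the single measured clock gene, had 582 and 602 at 8 HAP, against 1437 and 1304 in unpollinated pistils, a 2.28-fold fall (adjusted p = 7.36e-07).

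Of 17 sugar transporters 5 rose and 3 fell, beside 19.7% and 18.8% of all probe sets. SWEET17, a fructose carrier of the vacuole, rose 1.73-fold with 1312 and 1589 at 8 HAP, against 816 and 844 in unpollinated pistils (adjusted p = 0.000161), and SWEET2, also vacuolar, rose by log2 0.73 with 179 and 197 at 8 HAP, against 105 and 109 in unpollinated pistils. SWEET11, a sucrose carrier of the plasma membrane, had 220.3 and 225 at 8 HAP, against 376 and 308 in unpollinated pistils and 542 and 578 at 3.5 HAP, so it was 1.49-fold below its unpollinated level at 8 HAP and above it at 3.5 HAP. Without 8 HAP replicate 1 the falls numbered 1. SAG29, a further SWEET gene known from senescence and from seed coats, fell with 274 and 353 at 8 HAP, against 759.9 and 499 in unpollinated pistils (log2 -0.95). Of 29 serine carboxypeptidase-like genes 10 rose and 8 fell (median log2 -0.0032), beside 19.7% and 18.8% of all probe sets. Apart from scpl38 the called genes included scpl35, which rose 1.79-fold with 2835 and 3029 at 8 HAP, against 1746 and 1529 in unpollinated pistils, and scpl47, which fell 3.24-fold with 324 and 340.2 at 8 HAP, against 1164 and 1065 in unpollinated pistils. UBC28, a ubiquitin-conjugating enzyme, fell 1.93-fold with 4245 and 3850.0 at 8 HAP, against 7724 and 7930.3 in unpollinated pistils, 1 of 4 falls among 12 such genes.

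Genes listed for the pistil's own tissues were measured in both groups. Of 14 genes of stigma, style and transmitting tract 2 rose and 7 fell. CES (AT1G25330), a bHLH factor of the transmitting tract, had 404 and 440.1 at 8 HAP, against 1994 and 1891 in unpollinated pistils, a 4.47-fold fall (adjusted p = 4.97e-08) that lay after 3.5 HAP, where it had 1834 and 1476. SPT, a carpel margin factor, fell 1.69-fold with 319 and 319 at 8 HAP, against 561 and 539 in unpollinated pistils. The plantacyanin gene ARPN had 2392 and 2578 at 8 HAP, against 1446 and 1049 in unpollinated pistils, a 2.0-fold rise, and 5509 and 4852 at 3.5 HAP. The summed intensity of the 14 was 6866 and 7052 at 8 HAP, against 8212 and 7364 in unpollinated pistils, and the ranges did not overlap. Without 8 HAP replicate 2, 1 rose and 3 fell, and falls numbered 4 under the reference gene scaling. Among 5 markers of anther, petal and sepal 3 rose and 1 fell, with 3 of the 5 within the background level in both groups; their summed intensity was 977 and 820.2 at 8 HAP, against 800.4 and 929.7 in unpollinated pistils, and overlapped. The 3 rises there, 1 of them JMT, numbered 1 without either 8 HAP array or unpollinated replicate 1.

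Of 8 measured embryo sac genes 1 rose and 4 fell, with a second rise without unpollinated replicate 1. EC1.2 (AT2G21740) and EC1.5 (AT5G64720) encode proteins that egg cells secrete when sperm arrive. EC1.2 had 94.6 and 80.4 at 8 HAP, against 231 and 276 in unpollinated pistils (log2 -1.38; adjusted p = 8.12e-06), and EC1.5 134 and 156 at 8 HAP, against 257 and 298 in unpollinated pistils (log2 -0.87; adjusted p = 5.57e-05). Both were lower than at 3.5 HAP too, where EC1.2 had 233 and 182 and EC1.5 292 and 304. In ovules they were at 915 and 850.4 and 937 and 905. AGL80, a central cell factor, fell 1.37-fold. AGL62, which acts in early endosperm, rose within the background level, with 67.2 and 50.5 at 8 HAP, against 33.0 and 29.0 in unpollinated pistils (log2 0.66; adjusted p = 0.000766). The summed intensity of the 8 genes was 2751 and 2839 at 8 HAP, against 3336 and 2961 in unpollinated pistils.

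Of 8 integument and seed coat genes 3 rose and 2 fell, with 1 fall without 8 HAP replicate 1 or unpollinated replicate 1. Apart from BAN the rises were CYP78A9, a cytochrome P450 known to promote fruit and seed growth, with 247 and 224 at 8 HAP, against 118 and 141 in unpollinated pistils (log2 0.79, adjusted p = 0.000125 in limma), and SWEET10, with 574 and 645 at 8 HAP, against 458 and 338 in unpollinated pistils. The falls were INO (log2 -0.36) and SAG29 (log2 -0.95), the latter described above with the sugar transporters. On a further list of 13 genes, headed female gametophyte and seed and added later, 4 rose, 3 fell and 6 were not called. The 4 rises count MGH3 (log2 0.39), a histone gene of male gametes. Only 2 of the 4 rises had a mean above the background level. Of the 13 genes VDD, a factor of synergid and antipodal identity, had 556 and 501 at 8 HAP, against 256 and 376 in unpollinated pistils (log2 0.74, adjusted p = 0.00321 in limma), with 244 and 261 at 3.5 HAP and 1013 and 1249 in ovules. GLC, also of that list and needed in the central cell for endosperm, fell 2.01-fold with 1119 and 1066 at 8 HAP, against 2316 and 2114 in unpollinated pistils.

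Families of genes that share a symbol were counted too. Of 30 families with at least 8 measured genes, the GH symbols had the highest share of rises, 14 of 19, made up of the endoglucanases and the auxin-conjugating GH3 genes. The SEC symbols had 4 rises and 0 falls among 8, and SEC22, SEC10 and SEC5B were not called without 8 HAP replicate 1. SEC1B, of the Sec1 family that acts in vesicle fusion, rose 1.33-fold with 228 and 235 at 8 HAP, against 160.1 and 179 in unpollinated pistils. The NAD symbols, all mitochondrial, fell in 8 of 8 and the ATG symbols in 7 of 8. VPS genes of vacuolar sorting had 4 falls and 3 rises among 10, and VPS60.2 fell 1.59-fold with 251 and 234.4 at 8 HAP, against 354 and 439.7 in unpollinated pistils. These shares stand against 19.7% higher and 18.8% lower over all probe sets.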

How the data were processed

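Biotin-labelled cRNA from 10 samples, 2 for each of 5 groups, was hybridised to 1-colour arrays, 1 sample per array. The deposited table holds linear intensities, 1 per probe set. MAS5 is named in the submitters' processing notes, and its version and scaling are not given in the sources used here. The values were used as deposited, without further normalization, after adding 16 and taking log2. Differences were tested with limma 3.58.1 (R 4.3.3, moderated with a trend, 5 residual and 6.11 prior degrees of freedom) in 1 fit over all 5 groups, with Benjamini-Hochberg adjustment over 22745 probe sets. Control probe sets served only for the background level and RNA quality. Names came from the reference gene table by locus tag or symbol, and the brightest probe set stood for a gene that had more than 1. On data simulated for 8 HAP against unpollinated over 22745 probe sets, only 67, 67 and 66 were changed, by log2 0.5, 1 and 2. The test recovered 47.8%, 92.5% and 97.0% of them, with 5 false calls. Far more probe sets were called on the measured arrays. The simulation therefore does not give the recovery or the false calls of this comparison.

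Genes were named by rule: the 20 largest rises and 15 largest falls above background, up to 10 each to or from background, up to 6 called and 3 uncalled members of a list by adjusted p, and up to 4 members of 12 symbol families. UGT78D1, SHT, EXPA15, EXLB1, nad5, ATG8E and BHLH101 were named outside it, after their values were seen. The members and lists were chosen with earlier results of these data known. Alternatives were other scalings, added numbers, filters, samples in the fit, moderation settings, a replicate block, and leaving out each array. Replicate numbers did not pair the samples: deviations of equally numbered 8 HAP and unpollinated arrays correlated at -0.028. The number of arrays limits the precision. A search of promoters was not run because no promoter sequences were at hand.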

Additional observations from a re-analysis of the deposited data

Results flagged for a closer look

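The 752 probe sets on any list were searched for genes called on opposite sides of the unpollinated pistils at 8 HAP and 3.5 HAP. A called difference between the 2 times was also required, so that it passed is no separate result. The search kept 13 genes. Both comparisons with unpollinated pistils share the unpollinated arrays. Of the 13 genes, 8 were below unpollinated pistils at 8 HAP and above them at 3.5 HAP. Their log2 differences, 8 HAP minus 3.5 HAP, were -1.33 for COR15B, -3.09 for COR15A, -1.87 for EXLB1, -1.27 for SWEET11, -0.58 for scpl40, -0.66 for ATG8H, -1.04 for ATG8E and -0.65 for DELTA-OAT. The other 5 were above unpollinated pistils at 8 HAP and below them at 3.5 HAP, with log2 differences of 0.90 for PME61, 0.63 for AGL87, 0.93 for PRL, 0.62 for UBP23 and 1.16 for SKU5. Some of these calls against unpollinated pistils were small. AGL87, at adjusted p = 0.0496 in limma, was not called under the replicate block, quantile normalization or a pseudocount of 1, nor without either 8 HAP array or unpollinated replicate 1. COR15B, EXLB1, PRL, scpl40, SKU5 and DELTA-OAT were each not called without at least 1 single array, and COR15B, scpl40 and DELTA-OAT not under the reference gene scaling. The widest was COR15A, with a mean of 207 at 8 HAP, against 1867 at 3.5 HAP. SKU5, a wall protein of directional growth, had a mean of 769 at 8 HAP, against 336 at 3.5 HAP.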

How the results depend on the processing

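The anthocyanin and flavonoid rises numbered 6 under each of the alternatives tried, and the counts of endoglucanase and cytoskeleton rises and of photosynthesis, autophagy and egg cell falls stayed within 1.5 times their value. Under the reference gene scaling 2437 probe sets were lower in place of 4280, stigma and style falls numbered 4, expansin and xyloglucan rises 14, plastid rises 30 and plastid falls 2; the shift of every array sets this. Without the dimmest 40% of probe sets fewer genes were tested, and expansin and xyloglucan rises numbered 5 and mitochondrial falls 7. With probe sets of a gene averaged the mitochondrial median was -1.34 in place of -1.87. Leaving out 1 array at a time gave 5610 to 8967 calls, 2609 to 4805 of them lower, and 3563 to 4299 calls between 8 and 3.5 HAP. It also gave 3 to 6 stigma and style falls, 2 to 5 replication and cell cycle rises, 10 to 22 plastid rises, 2 to 7 plastid falls and 5 to 9 nuclear respiratory rises; fewer arrays leave fewer degrees of freedom. D2HGDH, at a log2 difference of -0.052 and not called, was called higher at 0.40 without unpollinated replicate 1 (adjusted p = 0.039 in limma) and lower at -0.50 without unpollinated replicate 2 (adjusted p = 0.0152). With the replicate number as a block, 8333 probe sets were called against unpollinated pistils and 6595 against 3.5 HAP; replicate numbers did not pair the samples. Over all genes named by rule or on any list, 19 lost and 6 gained a call under that block. The other 778 kept their label, and they include genes never called. More of these genes lost a call without 8 HAP replicate 2, which leaves 1 array in that group. Signals within the background level have no reliable fold, and 2 arrays per group limit what small differences can show. On simulated data with few changed probe sets, 47.8% of changes of log2 0.5 were recovered, which does not give the share recovered here.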
